A study of Rattus norvegicus with 4 samples.

Results

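The thioredoxin and peroxiredoxin system was described through 10 genes: the thioredoxins Txn1 and Txn2, the reductase Txnrd1, the sulfiredoxin Srxn1 and the peroxiredoxins Prdx1 to Prdx6. They were chosen by name, as the array probes whose RefSeq accession belongs to one of these genes in the rat RefSeq table. The 10 genes are part of 16581 genes that had a probe with 1 gene symbol. They were read by 11 probes in 39 spots on each array.

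The RNA came from NR8383 cells, a line derived from macrophages lavaged from a normal rat's lung, whose cultures hold attached and floating cells. After 20 passages, the cells received NiZnFe2O4, an oxide that holds nickel, zinc and iron, at a concentration of 9.25 µg/mL over 4 h. There were 4 biological replicates, each measured on 1 one-colour Agilent array with the dye Cy3, and all belong to the exposed group. The study set exposed against untreated cells, but the untreated arm was not analysed here, so no value below shows what the exposure changed and no test between groups was made.

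Peroxiredoxins reduce hydrogen peroxide and other peroxides with a reactive cysteine, which is oxidised in the process. Thioredoxins return most of them to the reduced state and are themselves reduced by thioredoxin reductase with electrons from NADPH. When a peroxiredoxin is oxidised too far for thioredoxin to act on it, sulfiredoxin can restore it at the cost of ATP. In macrophages, which make reactive oxygen species of their own, this system is one of the main routes by which peroxide is removed.

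Reference sequence around the start site is shown for 3 of the genes, the sulfiredoxin, a peroxiredoxin and the reductase, because these stretches hold motifs known from the control of antioxidant genes. The motifs searched were TGACNNNGC, the core of the antioxidant response element that is bound by the protein of Nfe2l2 with small Maf proteins, the related TGAGNNNGC, and TGAGTCA, the AP-1 site. Both strands were searched in windows of 280 bases, 250 before and 30 after the annotated start. Each window is RefSeq sequence of the rat assembly GRCr8, written 5′ to 3′ on the gene's own strand, with every match in capitals. Srxn1 lies at chr3:161064562-161064841 on the plus strand, Prdx1 at chr5:135383656-135383935 on the plus strand, and 1 of the windows of Txnrd1 at chr7:22755875-22756154 on the minus strand.
Srxn1: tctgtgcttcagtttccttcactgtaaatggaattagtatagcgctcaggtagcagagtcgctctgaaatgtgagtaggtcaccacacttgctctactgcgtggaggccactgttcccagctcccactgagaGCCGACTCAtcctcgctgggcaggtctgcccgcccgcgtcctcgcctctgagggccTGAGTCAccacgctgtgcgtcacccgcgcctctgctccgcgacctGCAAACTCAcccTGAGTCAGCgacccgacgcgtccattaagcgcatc
Prdx1: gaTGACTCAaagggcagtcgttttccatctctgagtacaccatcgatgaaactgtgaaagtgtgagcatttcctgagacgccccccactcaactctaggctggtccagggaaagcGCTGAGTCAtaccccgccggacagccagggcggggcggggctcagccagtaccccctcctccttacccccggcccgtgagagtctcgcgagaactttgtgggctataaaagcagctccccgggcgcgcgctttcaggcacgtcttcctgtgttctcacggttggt
Txnrd1: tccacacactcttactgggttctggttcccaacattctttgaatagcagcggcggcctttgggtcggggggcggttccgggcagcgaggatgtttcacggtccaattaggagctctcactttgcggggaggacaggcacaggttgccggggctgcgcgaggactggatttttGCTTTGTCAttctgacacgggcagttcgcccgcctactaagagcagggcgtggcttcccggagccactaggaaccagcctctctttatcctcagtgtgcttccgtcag
The Srxn1 window held TGAGNNNGC 3 times and TGAGTCA 2 times, and the copy of TGAGTCA that begins 5 bases before the start is part of a TGAGNNNGC match. Prdx1 held TGAGTCA 2 times, and 1 of these, written TGAGTCA in the window, overlaps a TGACNNNGC match on the other strand. The Txnrd1 window held 1 TGACNNNGC match, 78 bases before the start. Single matches of TGACNNNGC also stood in the windows of Prdx5 and Prdx4.

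Windows were found for 9 of the 10 genes, 10 windows in all, and Prdx6 was not matched. TGACNNNGC or TGAGNNNGC was present for 5 of these 9 genes and TGAGTCA for 2. Txnrd1 was counted by the window shown, and its other window held no match. The shares that follow are per window and not per gene. Of all 33469 windows of the same length, 25.4% held TGACNNNGC or TGAGNNNGC, with 11.3% holding the first and 16.0% the second, and 4.42% held TGAGTCA. A match says that these letters are present and not that a factor binds there.

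As a check of the arrays, between 12320 and 15098 of the 45598 probes were well above background by the scanner software's own flag, with most such probes on replicate 1 and fewest on replicate 3. No spot was saturated. Pearson correlations between arrays ran from 0.975 to 0.986. They were taken over the 6418 genes well above background on all 4 arrays, each by its brightest probe, so dim probes are left out. Of 15 macrophage markers measured, 11 passed this flag on all 4 arrays, Mrc1 on 3, and Marco, Cd163 and Adgre1 on none. Of 12 markers of epithelium, neutrophils, lymphocytes and fibroblasts, 9 were on none, S100a8 was on some, and Lck and Dcn were on all 4. All 4 epithelial markers were on none. Of all 16581 genes, 38.7% passed the flag on all 4 arrays, and the share on no array is not given here.

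The background flag was passed on every array by all 10 genes, where 38.7% of the 16581 genes passed it on all 4. The level of a gene is given below as the log2 of its processed signal minus the 75th percentile of log2 signals over all probes of that array, so a level of 0 is the signal of a probe at that percentile. Levels of different genes depend on their probes and were not set against each other. Deviations of a gene from its own mean, and differences between the same pair of genes on different arrays, can be compared.

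Txn1, the thioredoxin of cytosol and nucleus, was read by a probe printed in 10 spots. Its processed signal was 41024, 30218, 18261 and 25570 intensity units on replicates 1 to 4. After scaling, its levels were 9.94, 9.85, 9.60 and 10.01, a mean of 9.85 ± 0.18 (SD, n = 4). Replicate 3 was the low array and the other 3 lay close together. On replicate 3 the 10 spots spanned 9.47 to 9.71, and the lowest spot on the other arrays was at 9.72 on replicate 2, where spots reached 9.98. The spots of these 2 arrays thus only just failed to overlap, and spots of 1 array show nothing of the spread between cultures. Without replicate 3 the SD of Txn1 was 0.08. Single spots of the probe had an SD of 0.05 to 0.10 within an array. The SD between arrays, which is of means over 10 spots, was 2.24 times the median of these.

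Txn2, the thioredoxin of mitochondria, gave levels of 4.71, 5.02, 5.08 and 5.56, a mean of 5.09 ± 0.35 (SD, n = 4), from 1 spot. Replicate 4 was high and replicate 1 low, and the middle 2 arrays were near each other. The highest level was 1.80-fold the lowest. In signal before scaling, the values were 1091, 1059, 794 and 1164 intensity units, so that replicate 3 was lowest there. Leaving out replicate 4 brought the SD to 0.20.

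Txnrd1 encodes the cytosolic thioredoxin reductase, a selenoprotein, and its 2 probes had signals near the local background. Its brighter probe gave levels of 1.38, 1.41, 1.41 and 0.98, a mean of 1.30 ± 0.21 (SD, n = 4). Replicates 1 to 3 were within 0.03 of each other and replicate 4 was low, and without replicate 4 the SD was 0.02. The processed signal was 109, 87.0, 62.6 and 48.9 intensity units, and the raw spot signal was 2.84 to 4.42 times the local background. A second probe for the gene gave levels of -0.60, -0.13, -0.41 and -0.01, and it was not well above background on replicate 3. The 2 probes did not show the same order, since replicate 4 was lowest by the first and highest by the second. The difference between them was 1.98, 1.54 and 1.82 log2 units on replicates 1 to 3 and smaller than any of these on replicate 4. The software's own error estimate was 10.5% to 12.4% of the signal for the brighter probe and 14.8% to 24.0% for the other.

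Srxn1, which restores overoxidised peroxiredoxins, had the largest spread of the 10 genes. Its processed signal was 2571, 1753, 760 and 1157 intensity units on replicates 1 to 4, a 3.38-fold difference between replicates 1 and 3. Scaled levels were 5.95, 5.74, 5.01 and 5.55, with a mean of 5.56 ± 0.40 (SD, n = 4). Replicate 1 was highest and replicate 3 lowest, and the highest level was 1.91-fold the lowest. Replicate 3 carried much of this spread: without it the SD of Srxn1 was 0.20, below those of Txn2 at 0.43, Prdx5 at 0.30, Prdx4 at 0.26, Txnrd1 at 0.24 and Prdx6 at 0.22. The gene was read by 1 spot, so no spread between spots could be given.

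The plot of deviations shows each gene against its own mean, with the 10th to 90th percentile of all genes behind it.

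**Figure D1:**
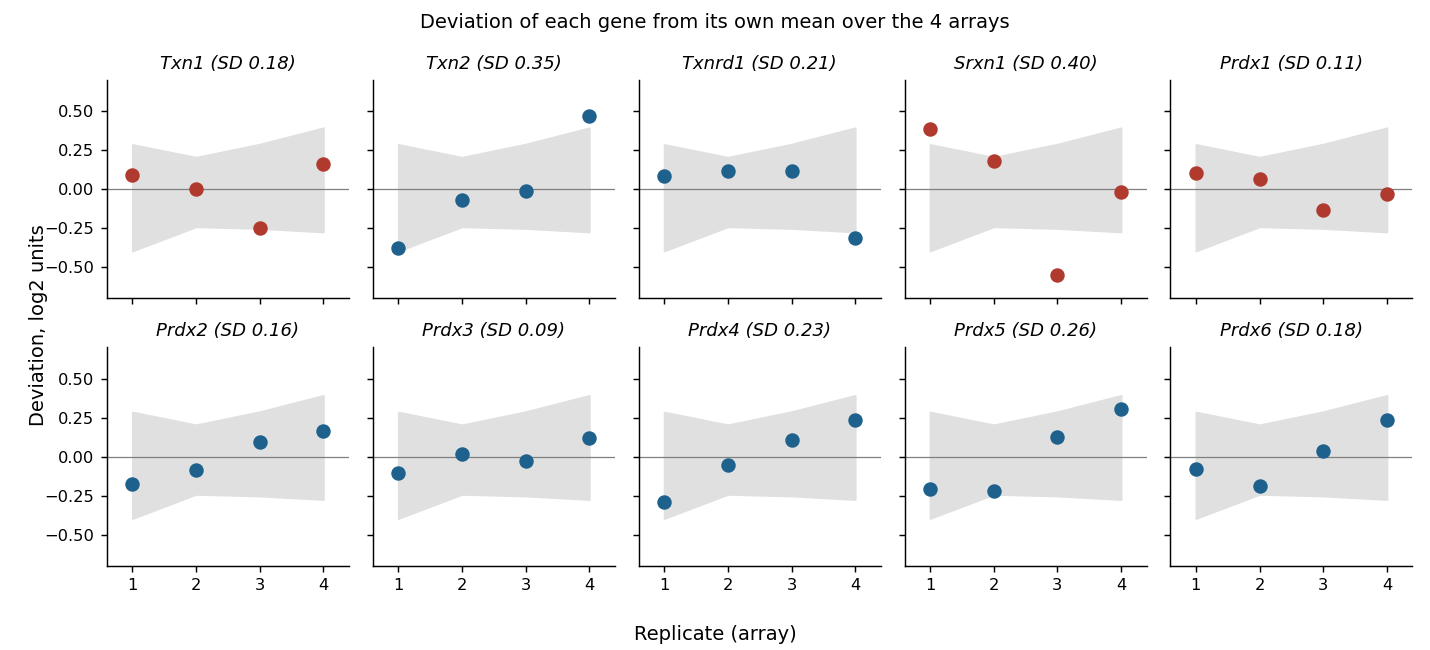
Deviation of each of the 10 genes from its own mean (log2 units, vertical axis) on replicates 1 to 4 (horizontal axis), with the 10th to 90th percentile of all 6418 genes well above background shaded in grey and genes whose lowest level was on replicate 3 in red. Srxn1 lay at -0.55 from its mean on replicate 3, outside the shaded range, and Txn2 at 0.47 on replicate 4.

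Prdx1 and Prdx2 are peroxiredoxins of the cytosol. Prdx1 gave 5.17, 5.13, 4.93 and 5.04, a mean of 5.07 ± 0.11 (SD, n = 4), over 10 spots per array. All 4 arrays lay within 0.24 log2 units, with replicate 3 lowest. The spots of different arrays overlapped: they spanned 4.82 to 5.02 on replicate 3 and 4.88 to 5.27 on replicate 4. Spots within an array had an SD of 0.05 to 0.11, and without replicate 3 the SD between arrays was 0.07. The latter is of means over 10 spots, which are steadier than single spots, so these SDs are not like for like. Prdx2, also known for its abundance in red blood cells, gave 6.55, 6.64, 6.82 and 6.89, a mean of 6.72 ± 0.16 (SD, n = 4). Replicates 1 and 2 were lower than replicates 3 and 4.

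Prdx3 is found in mitochondria and Prdx4 in the endoplasmic reticulum. Prdx3 gave 3.94, 4.07, 4.02 and 4.17, a mean of 4.05 ± 0.09 (SD, n = 4), the smallest SD of the 10 genes with this scaling. With quantile normalization Prdx2 was at 0.04 and Prdx3 at 0.06, and with no scaling Prdx4 had the smallest SD, 0.18 against 0.33 for Prdx3. The 4 arrays were close to each other, the highest 1.17-fold the lowest. Prdx4 gave 3.63, 3.87, 4.03 and 4.15, a mean of 3.92 ± 0.23 (SD, n = 4). Replicate 1 was low, and without it the SD was 0.14.

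Prdx5 occurs in mitochondria, peroxisomes and cytosol, and was read by a probe in 10 spots, of which 9 remained on replicates 1 to 3 after an outlier spot was left out. Its levels were 9.14, 9.13, 9.48 and 9.66, a mean of 9.35 ± 0.26 (SD, n = 4). With this scaling, replicates 1 and 2 formed a low pair and replicates 3 and 4 a high pair, with no overlap between the spots of the pairs. Spots reached up to 9.20 and 9.27 on the low pair, and spanned 9.43 to 9.54 and 9.54 to 9.79 on the high pair. The SD between arrays, which is of means over 9 or 10 spots, was 3.81 times the median SD of single spots within an array. This spread depended on the scaling, since the SD of Prdx5 was 0.13 with quantile normalization and 0.08 with normexp. The pairs depended on it too. Before scaling, the signal was 23546, 18335, 16761 and 20004 intensity units on replicates 1 to 4, so replicate 1 was highest. Spots of replicate 2 then reached 20208 and those of replicate 4 began at 18386. Deviations were -0.11, -0.10, 0.04 and 0.17 with quantile normalization, and -0.06, -0.03, -0.03 and 0.12 with normexp. Prdx6, which works with glutathione in place of thioredoxin and also has phospholipase activity used in lung surfactant turnover, gave 3.30, 3.19, 3.42 and 3.62, a mean of 3.38 ± 0.18 (SD, n = 4). Replicate 4 was high, and the SD without it was 0.11.

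**Figure D2:**
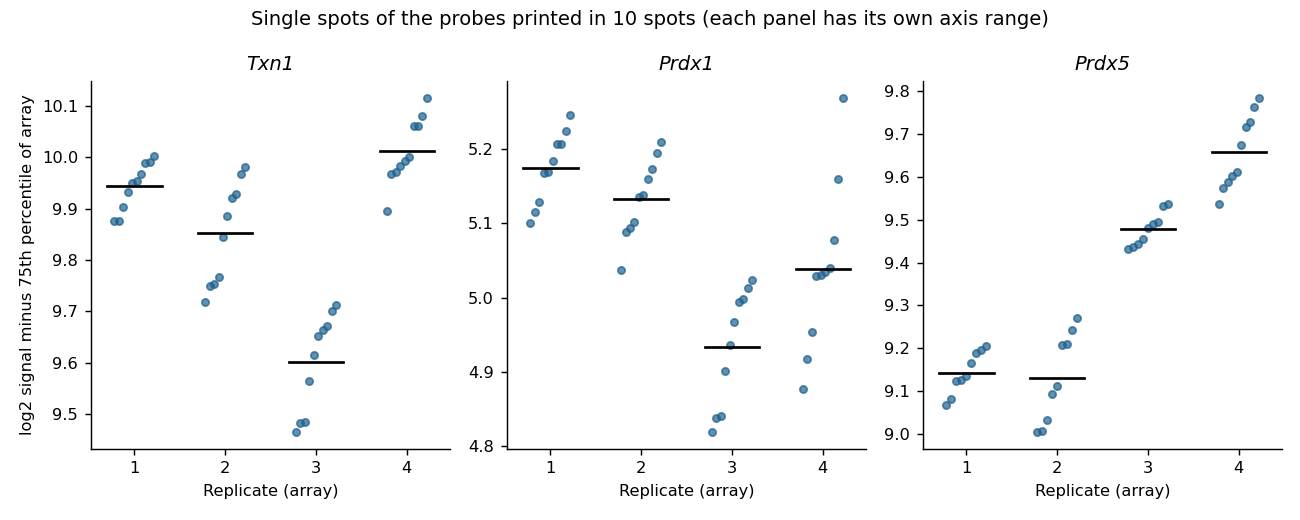
Level of every single spot (log2 signal minus the array's 75th percentile, vertical axis) of the probes for Txn1, Prdx1 and Prdx5, sorted by value within each of replicates 1 to 4 (horizontal axis), with black lines at the means. Spots of Txn1 on replicate 3 lie between 9.47 and 9.71, below all others, while those of Prdx1 overlap between arrays. Each panel has an axis range of its own.

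The spread of the 10 genes was close to that of genes in general. Their median SD was 0.20, from 0.09 for Prdx3 to 0.40 for Srxn1, and the median over all 6418 genes well above background was 0.23. Of the 10 genes, Txn2, Srxn1, Prdx4 and Prdx5 lay above that general median, Prdx4 by less than 0.01. With quantile normalization the general median was 0.22. Prdx4 at 0.16 and Prdx5 at 0.13 lay below it there, and Txnrd1 at 0.23 and Txn1 at 0.25 above it. The percentile over probes well above background placed Prdx4, Prdx5 and Txnrd1 on the same sides, but Txn1, at 0.20, below its general median of 0.22. With the main scaling, Prdx1 and Prdx3 were below 0.15, the 25th percentile of all genes, and none was above 0.43, the 90th percentile. Prdx1 was at 0.18 with quantile normalization and at 0.17 with the percentile over probes well above background. These percentiles of all genes are not given for the other scalings. Srxn1 stood at percentile 87.2 and Txn2 at percentile 80.3 of all SDs, against 7.39 for Prdx3. In bulk RNA, fewer cells of a type and less RNA per cell cannot be told apart, and whether culture or array handling set these differences was not tested.

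**Figure D3:**
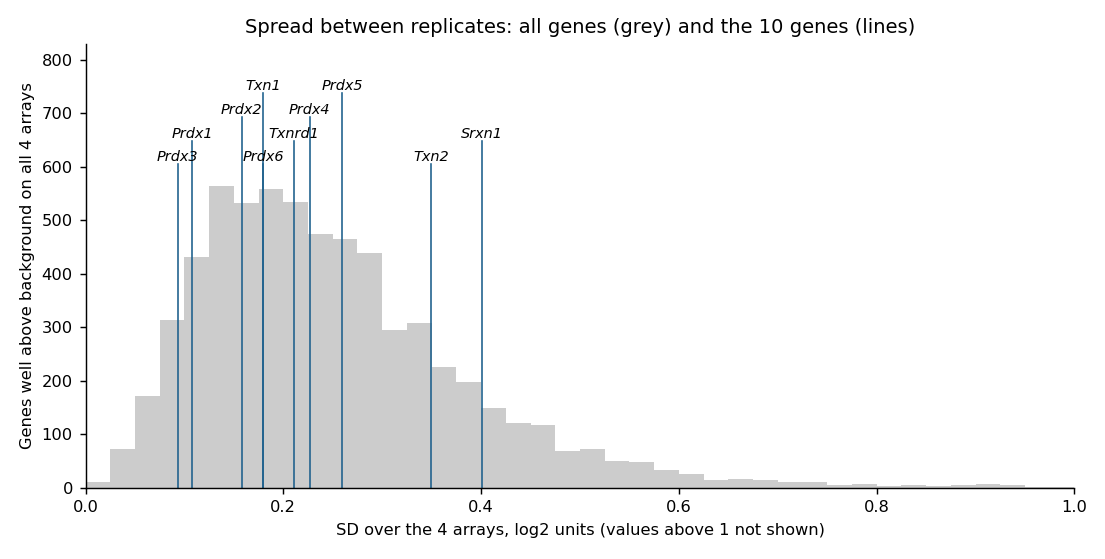
Number of genes (vertical axis) by SD over the 4 arrays (log2 units, horizontal axis) for all 6418 genes well above background in grey, with a line for each of the 10 genes. Srxn1 lies at 0.40 and Txn2 at 0.35, Prdx3 and Prdx1 lie at 0.09 and 0.11, and the median of all genes is 0.23.

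Which array was high for a gene depended on the scaling. With the scaling above, 7 of the 10 genes were highest on replicate 4, where 37.1% of the 6418 genes were. On replicate 3, 3 were lowest, where 22.4% were: Txn1, Srxn1 and Prdx1. The counts were 4 and 4 with quantile normalization and 4 and 3 with normexp. They were 5 and 4 with the percentile over probes well above background. Shares of all genes with these other scalings are not given here. With no scaling, 9 genes were lowest on replicate 3 and 1 was highest on replicate 4, and with centring on spike-in probes the counts were 0 and 0. Against the scaling above, no scaling and spike-in centring moved the median over all genes by up to 0.48 and 0.74 log2 units on an array. An order of arrays for 1 gene is thus relative to what the scaling sets to a common value.

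Differences between 2 genes on the same array do not depend on a scaling that shifts a whole array. Srxn1 varied most by this measure too. The difference between Srxn1 and each other gene was highest on replicate 1 and lowest on replicate 3 in 9 of 9 pairs, although against Txnrd1 replicates 1 and 4 were level to 2 decimals. These pairs share Srxn1, so they restate its own deviations and are not 9 separate observations. Each such difference varied over the arrays by between 0.59 log2 units, against Txn1, and 1.33, against Prdx4. The latter difference was 2.32, 1.88, 0.99 and 1.39 on replicates 1 to 4, the widest range of the 45 pairs, whose median was 0.61. The closest pair was Prdx2 with Prdx4, at a range of 0.18.

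Against the median deviation of the other 9 genes, Srxn1 stood at 0.49, 0.23, -0.58 and -0.18 on replicates 1 to 4. Its range of 1.07 log2 units, or 2.10-fold, was matched or passed by 442 of 6408 other genes, 6.90%, which is a description of the widest of 10 genes. This width rested on replicate 3: without it the range of Srxn1 was 0.71 log2 units, and 1390 of the 6408 genes, 21.7%, had one as large. Other genes gave nearly as uniform counts. For Txn2 the difference to the other genes was highest on replicate 4 in 8 of 9 pairs and lowest on replicate 1 in 8 of 9. For Txnrd1 the difference was lowest on replicate 4 in 8 of 9 pairs, by its brighter probe, and for Prdx4 it was lowest on replicate 1 in 8 of 9. The peroxiredoxins Prdx2 to Prdx6, a grouping made after their values were seen, kept close to each other: their 10 pairs varied by 0.18 to 0.43 log2 units, with a median of 0.26. Some pairs that reach outside the grouping also lay in that range, such as Txn2 with Prdx5 at 0.33, Txn2 with Prdx4 at 0.35 and Prdx1 with Prdx3 at 0.36. Prdx1 was not part of that grouping, and it followed Txn1 more closely, with a range of 0.30 in their difference.

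**Figure D4:**
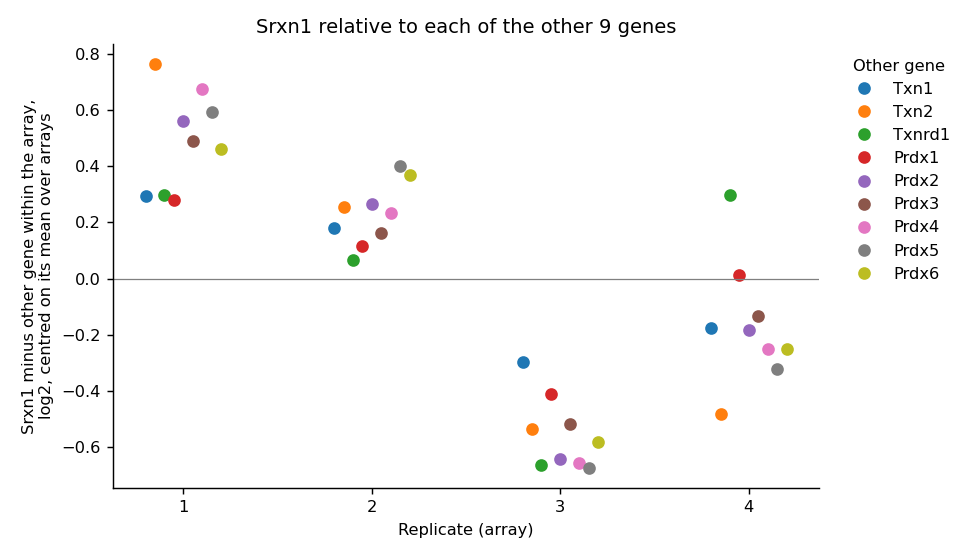
Difference between Srxn1 and each of the other 9 genes within an array, centred on its mean over the arrays (log2 units, vertical axis), on replicates 1 to 4 (horizontal axis), with a colour for each other gene. All 9 points on replicate 3 lie below 0 and all 9 on replicate 1 above it, and against Prdx4 the difference ranged over 1.33 log2 units.

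With the main scaling, 4 genes had an SD above the general median. Other scalings would alter this choice, for Prdx4, Prdx5, Txnrd1 and Txn1 among others. For each of the 4, the genes with the most alike pattern over the 4 arrays were named by the root mean square difference of deviations. For Srxn1 these were Golgb1, a Golgi protein, at 0.018, Ranbp2, a nuclear pore protein, at 0.035, and Sfxn4, a mitochondrial membrane protein, at 0.049 log2 units. Srxn1 had 24 genes of 6408 within 0.1 log2 units. More genes were near the other 3: 257 were within that distance of Txn2, 387 of Prdx5 and 576 of Prdx4. These counts fell as the gene's own SD rose, from 0.23 for Prdx4 and 0.26 for Prdx5 to 0.35 for Txn2 and 0.40 for Srxn1. A fixed distance thus does not compare the 4 genes on equal terms. Nearest to Txn2 were Eif2b1, a subunit of a translation initiation factor, at 0.017, and Use1 and Plod3, both at 0.018. Nearest to Prdx4 were Pomt1 at 0.010, Prp2 at 0.014 and Zfp709l1 at 0.016, and nearest to Prdx5 were Slc35a4 at 0.017, Sap30bp at 0.019 and Spata2L at 0.023. With 4 arrays and this many genes such likeness is a description only.

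Of 54 genes around the system, listed by known role, 50 had a probe and 40 of these passed the background flag on every array, beside 38.7% of all genes. Their median SD was 0.19, with a range of 0.05 to 0.53. Thioredoxin reductase draws on NADPH, and the genes of the NADPH supply list passed in 10 of 10 cases. Among them Pgd, an NADPH-producing dehydrogenase, stood at 4.56 ± 0.18. Tkt, a transketolase that does not itself make NADPH, stood at 10.43 ± 0.11 (SD, n = 4 each). Genes for building selenoproteins such as Txnrd1 passed in 5 of 5 cases, with Sephs2, which makes the selenium donor, at 3.45 ± 0.31, Secisbp2 at 2.70 ± 0.26 and Eefsec at 3.80 ± 0.32 (SD, n = 4 each).

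Among thioredoxin partners, 7 of 9 measured genes passed and Txnrd3 and Map3k5 did not on any array. The mitochondrial reductase Txnrd2 stood at 2.10 ± 0.32, Txnip, which binds and inhibits thioredoxin, at 0.24 ± 0.33, and Txnl1 at 2.73 ± 0.18 (SD, n = 4 each). The glutaredoxins, a parallel system that uses glutathione, passed in 3 of 3 cases: Glrx was at 4.07 ± 0.14, Glrx3 at 4.53 ± 0.19 and Glrx5 at 4.41 ± 0.07 (SD, n = 4 each). Of the ribonucleotide reductase genes, whose enzyme takes electrons from thioredoxin, Rrm1 at 5.74 ± 0.07 and Rrm2 at 6.24 ± 0.05 (SD, n = 4 each) were among the steadier values and Rrm2b was on no array. Sestrins and methionine sulfoxide reductases passed in 3 of 5 cases. Sesn2, a stress-induced sestrin, varied most, from 0.48 on replicate 1 to 1.75 on replicate 4 with an SD of 0.53, while Msrb1 was at 6.07 ± 0.14 and Msrb2 at 3.69 ± 0.09 (SD, n = 4 each). Msra was above background on 2 of 4 arrays and Sesn3 on none.

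Nfe2l2, which encodes a main activator of genes of this system, stood at 3.79, 3.91, 3.79 and 3.81, a mean of 3.82 ± 0.06 (SD, n = 4). Its spread was small beside that of Srxn1. Keap1, its inhibitor, stood at 1.33 ± 0.10 and Mafg at 2.97 ± 0.29 (SD, n = 4 each), and 4 of 6 regulators passed. Mafk was above background on 1 array and Bach1, a repressor at the same sites, on none. In the endoplasmic reticulum, where Prdx4 works beside the folding enzymes, 6 of 9 genes passed, and Ero1b, Gpx7 and Gpx8 were on no array. P4hb stood at 5.48 ± 0.26, Pdia3 at 3.48 ± 0.53 and Pdia4 at 1.64 ± 0.50 (SD, n = 4 each). Pdia3 and Pdia4 were both low on replicate 1, at 2.68 and 0.89, with their other arrays at 3.70 to 3.78 and 1.77 to 1.98.

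**Figure D5:**
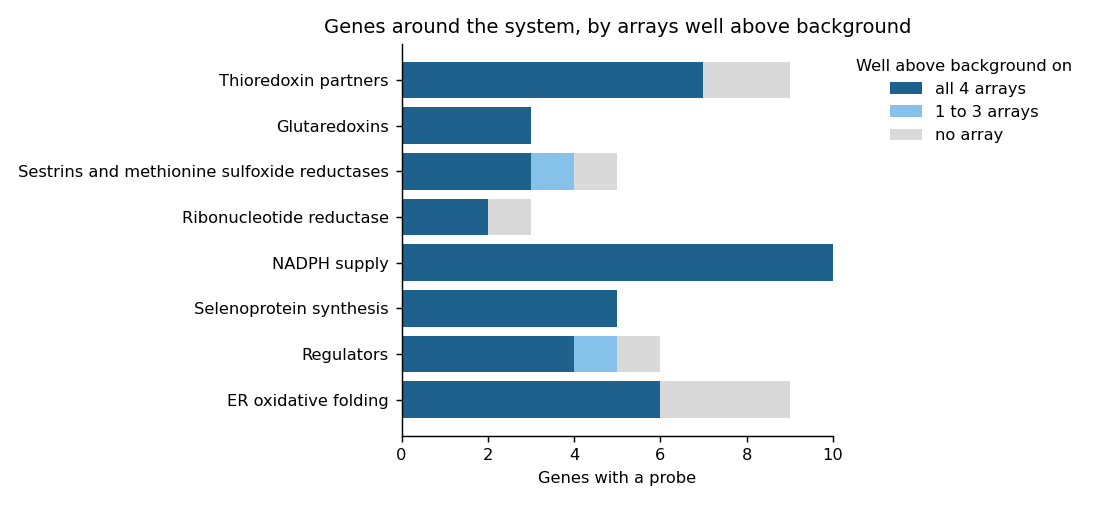
Number of genes with a probe (horizontal axis) in each of 8 role lists around the system (vertical axis), by whether they passed the background flag on all 4 arrays, on 1 to 3 or on none. The NADPH supply list reaches 10 of 10, and the thioredoxin partners reach 7 of 9.

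Several of the 10 genes have close relatives in the rat RefSeq table that carry the gene's name as a pseudogene or a like gene. There were 8 for Prdx1, 3 for Prdx6, and 1 each for Prdx3, Txn1 and Txn2, and none of them had a probe of its own. The array files hold no probe sequences, so whether the probes of these 5 genes also bind transcripts of such relatives was not tested and their levels are uncertain in that respect.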

How the data were processed

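RNA of 4 replicates of exposed NR8383 cells was measured on 1 array each. The authors deposited the output of Feature Extraction 11.0.1.1 (Agilent's scanner software, per the file headers) as intensities on a linear scale that are not scaled between arrays, with spot flags coded 0 or 1. The array design names build rn4, so the coordinates given are those of RefSeq windows on GRCr8. All 4 arrays lie on 1 slide, per the file headers.

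Control spots and outlier spots (491 to 828 per array) were left out, and spots of a probe were averaged as log2 signals. A probe was well above background where at least 0.5 of its spots were. Accessions matched 21109 of 45598 probes to 1 gene symbol, 24489 to none and 0 to several. A gene passed if at least 1 probe was well above background on every array, and its level is that of its brightest probe minus the 75th percentile of the array. The SD over 4 arrays is descriptive, and the small number of arrays limits its precision. No 2 arrays held identical values.

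The members and lists were chosen with earlier results of these data known. All 10 members are named, with list members not passing on all 4 arrays, up to 3 passing members per list in written order, and the 3 most alike genes for each member above the general median SD. Nxn, Glrx2, Sesn1 and Msrb3 had no matched probe. The values of 1 list member that this rule names are not reported here.

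Alternatives tried were a looser flag, passing on 3 arrays, a pass by every probe, other scalings, normexp with an offset of 50 on median spot signals, no filter, the mean of probes, leaving out each replicate, and removal of a local trend. The procedures were tested on simulated data. Python 3.11.15, numpy 2.4.6, pandas 2.3.3, R 4.3.3 and limma 3.58.1 were used.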

Additional observations from a re-analysis of the deposited data

Results flagged for a closer look

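In 5 of the 50 genes of the system and its lists that were well above background on all 4 arrays, 1 array lay apart from the other 3: the gap to the nearest array, divided by the range, passed Dixon's 95% critical value for 4 samples. Chance gives about 1 in 20, and 316 of all 6418 genes, 4.92%, passed. The ratios are of levels with the main scaling, and a scaling that shifts a whole array can alter them. With no scaling, Txnrd1 deviated from its mean by 0.57, 0.25, -0.23 and -0.58 on replicates 1 to 4. Txnrd1, the thioredoxin reductase gene, had a ratio of 0.932, with replicate 4 low by its brighter probe, while its second probe was highest there. Pgd, an NADPH-producing enzyme, had a ratio of 0.899, with replicate 1 low at 4.29 and the others at 4.63 to 4.67. Pstk, a kinase of selenoprotein synthesis named after its values were seen, had a ratio of 0.865, with replicate 3 low at -0.22 and the others at 0.14 to 0.20. Keap1 had a ratio of 0.902, with replicate 4 high at 1.47 and the others at 1.27 to 1.29. Pdia3, a disulfide isomerase, had a ratio of 0.927, with replicate 1 low.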

How the results depend on the processing

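The count of 10 members well above background held under the looser flag, 3 of 4 arrays and leaving out each replicate, and was 9 when every probe had to pass, where Txnrd1 was lost. The share of all genes was 50.9% with the looser flag and 33.2% with all probes. The 40 list genes became 43 and 38. The members' median SD of 0.20 moved to 0.31 with no scaling and to 0.48 with spike-in centring over 7 probes, where the median SD of all genes was 0.38 and 0.57. Under the other settings it was 0.14 to 0.20, and leaving out 1 replicate gave 0.16 to 0.23. Srxn1 was highest on replicate 1 in 7 of 7 settings and lowest on replicate 3 in 6. Among these settings, the mean of probes could not move Srxn1, which has 1 probe. The SD of Txnrd1 ran from 0.08 with normexp to 0.77 with spike-in centring. Removing a local trend over 10 rows and columns, chosen after seeing the data, gave a median SD of 0.19. A slide block could not be fitted to 1 slide. No paired analysis was possible because the labels give 1 group.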
